A study of Homo sapiens with 4 samples.

Results

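The kidney lineage transcription factors are a set of 8 genes, PAX2, PAX8, HNF4A, LHX1, EMX2, SIX2, WT1 and OSR1, chosen by name for their part in forming the kidney. The gene table of the array lists 1 probe set for each of 7 of them, out of 17687 named genes, and these 7 are described here. HNF4A was not analysed here, since that table names no probe set for it. RNA from 786-O cells, a human line grown from a clear cell renal cell carcinoma and named CRL-1932 in the array labels, was hybridized to 4 Clariom S arrays. Both groups were the same line, kept in RPMI1640 with serum. One group was left untreated (2 arrays) and the other was given the chemokine MCP-1 at 5 ng/mL (2 arrays), with control cells taken from the same passage. The labels give 16 h of MCP-1 and the methods of the paper 24 h. A single tumour line stands for the disease here, and each array holds the RNA of 1 dish, so that fewer cells making a transcript and less transcript per cell cannot be told apart.

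These factors act in steps. OSR1, PAX2, PAX8 and LHX1 mark the intermediate mesoderm and the nephric duct from which the kidney grows, and EMX2 is needed in the mouse in the ureteric bud, the outgrowth of that duct. SIX2 holds nephron progenitors in their undifferentiated state, and WT1 acts in the same progenitors and is later kept in podocytes, the filtering cells of the glomerulus. HNF4A drives the proximal tubule, the segment from which clear cell carcinoma is thought to arise. SIX2, OSR1 and LHX1 are switched off as nephrons mature, whereas PAX8 and often PAX2 stay on in renal carcinoma, where pathologists stain PAX8 to assign a metastasis to the kidney.

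The markers of the line were checked first. All 5 measured genes of the renal carcinoma line list (KRT8, KRT18, VIM, CDH2 and EPAS1) lay above background on both untreated arrays. CA9 and NDUFA4L2, also on that list, were not analysed here. Of 25 measured markers of monocytes and macrophages, lymphocytes, endothelium and stromal fibroblasts, 1 did, the lysosomal gene CD68, which many cells express. The summed level of the monocyte and macrophage list ran from 10.61 to 10.71 (log2) in untreated and from 10.65 to 10.72 in MCP-1-treated cells. CD68 alone had 10.5 and 10.6 untreated and 10.5 and 10.6 treated, so the sum says little of the other markers in that list. No lymphocyte, endothelial or fibroblast marker lay above background, among them CD3D, PECAM1 and COL1A1, and neither did CD14 or LYZ. Across probe sets the arrays correlated at r between 0.9929 and 0.9951 (correlations over genes, which are no independent replicates), with array medians from 6.20 to 6.28.

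Untreated 786-O cells gave signals for PAX8, PAX2, WT1 and LHX1 above background, and for SIX2, OSR1 and EMX2 within it. Background was read from the 612 negative control probe sets of the same array, and a gene was taken as above it where its log2 signal passed their 90th percentile on both untreated arrays, 6.48 and 6.36. By that rule 4 of the 7 factors were above background, against 48.0% of all 21448 probe sets tested. The same 4 passed the 95th percentile, 7.95 and 7.73, and the brightest of 23 further background probe sets binned by GC content, 7.70 and 7.60. Probe sets differ in how well they bind, so the signals of different genes are not ranked against each other, and each is set against the negative controls only.

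PAX8, the paired-box factor that stays on in adult tubules and thyroid, had log2 signals of 11.85 and 11.80 without MCP-1, and of 12.26 and 12.01 with it. On the untreated arrays 3 and 4 of the 612 negative controls were brighter. PAX2, its close relative and a regulator of nephric duct and nephron progenitors, had 10.48 and 10.56 without MCP-1, and 10.18 and 10.42 with it. It was outshone by 4 and 5 negative controls. Both probe sets thus lay far above background on every array, PAX8 by 5.41 and PAX2 by 4.10 on the log2 scale over the 90th percentile in untreated cells. Whether either probe set also binds the transcript of the other gene was not tested, and PAX5, the remaining gene of this subfamily, had 5.35 and 5.25, below the 90th percentile.

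WT1, a zinc finger factor of nephron progenitors and podocytes, and LHX1, a LIM homeodomain factor of the nephric duct and early nephron, were also above background. WT1 had log2 signals of 8.38 and 8.22 in untreated cells and 8.50 and 8.44 in treated cells. LHX1 had 8.14 and 8.32 in untreated cells and 8.55 and 8.50 in treated cells. On the untreated arrays 24 and 21 negative controls were brighter than WT1, and 26 and 20 brighter than LHX1. Both genes were above the 90th percentile on all 4 arrays, by 1.88 (WT1) and 1.81 (LHX1) on the log2 scale in untreated cells.

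SIX2, the factor of nephron progenitors, had log2 signals of 4.30 and 4.77 in untreated cells and 3.95 and 4.36 in treated cells. It was above the median of the negative controls and below their 75th percentile on both untreated arrays, where 206 and 161 of them were brighter. OSR1, a zinc finger factor of the intermediate mesoderm, had 3.12 and 2.78 untreated and 2.58 and 3.28 treated. EMX2, a homeodomain factor of the ureteric bud, had 3.09 and 3.39 untreated and 3.56 and 2.24 treated. OSR1 and EMX2 were below the median of the negative controls on every array, and transcripts of these genes were not detectable above background with these probe sets. The plot of signals by array shows the gap between the 4 factors above background and the 3 within it.

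**Figure D1:**
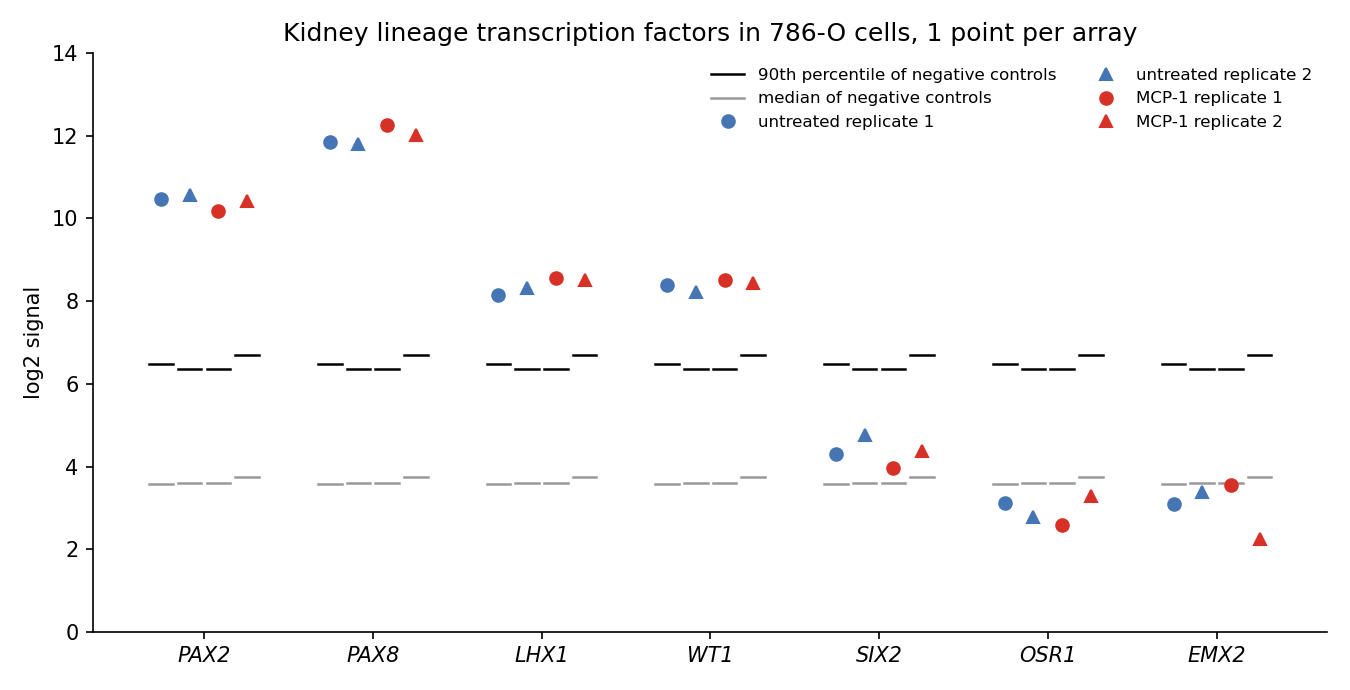
Log2 signal (vertical axis) of the 7 kidney lineage transcription factors on each of the 4 arrays, circles for replicate 1 and triangles for replicate 2, blue for untreated and red for MCP-1-treated cells. Black and grey bars give the 90th percentile and the median of the 612 negative control probe sets of the same array. PAX8, PAX2, WT1 and LHX1 lie above the black bars on all 4 arrays, and SIX2, OSR1 and EMX2 below them.

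The bases just before the gene start are shown for the 3 factors with a single start in the promoter table, since they hold a factor above background, PAX8, beside 2 at background, SIX2 and EMX2. Promoter sequences (RefSeq, GRCh38.p14) were found for 5 of the 7 genes, with 9 starts in all. LHX1 and OSR1 had no entry. Each line gives the 100 bases before the start, 5′ to 3′ on the strand of the gene, with the CCAAT box (CCAAT or, on the other strand, ATTGG) in capitals.
PAX8: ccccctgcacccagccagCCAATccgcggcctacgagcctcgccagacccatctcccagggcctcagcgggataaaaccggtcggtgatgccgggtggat
SIX2: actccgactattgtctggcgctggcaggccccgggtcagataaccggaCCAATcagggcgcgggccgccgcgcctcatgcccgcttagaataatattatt
EMX2: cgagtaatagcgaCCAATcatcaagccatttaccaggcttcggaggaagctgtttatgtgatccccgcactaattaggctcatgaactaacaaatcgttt
These are chr2:113278922-113279021 (minus strand), chr2:45009453-45009552 (minus strand) and chr10:117542646-117542745 (plus strand). Each of the 3 windows holds a CCAAT box, beginning 82 bases before the start in PAX8, 52 in SIX2 and 87 in EMX2, a motif that 32.0% of 35116 promoters hold within 250 bases before the start. Over those 250 bases the observed number of CpG dinucleotides divided by the number expected from base content was 0.518 for PAX8, 0.967 for SIX2 and 0.898 for EMX2, where the median promoter has 0.558. The GC box GGGCGG, counted on both strands, occurred 2 times in SIX2, 2 times in EMX2 and not in PAX8, and 42.6% of promoters hold one. TATAAA, on either strand, was in none of the 3 and is in 10.7% of promoters. The 2 starts of PAX2 and the 4 of WT1 hold no CCAAT box, so that 3 of the 9 starts found hold one, a share close to that of all promoters. These matches describe sequence and say nothing of which factor binds there.

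Lists of other kidney genes were read against the same background, which 48.0% of all probe sets passed. Of 36 measured further factors of kidney development, 11 were above background. MEIS2, a homeodomain cofactor, had 10.93 and 10.74 on the untreated arrays, MECOM, a zinc finger factor, 10.55 and 10.31, and SOX4 10.37 and 10.36. ETV5, which acts downstream of RET in the mouse ureteric bud, had 8.96 and 9.11. HNF4G, the relative of HNF4A, had 9.15 and 8.87 and was also above background.

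Among 19 measured relatives from the gene families of the factors, PAX6, a paired-box factor of eye and pancreas, was the only one above background, at 9.03 and 8.74 on the untreated arrays. Of the others, SIX5 (5.82 and 4.74), PAX5 and LMX1A (4.89 and 4.83) did not reach the 90th percentile. Above background were 4 of 7 lineage factors and 1 of 19 relatives, beside 48.0% of all probe sets tested. These are counts only, on lists of different size chosen with earlier results of these data known. The list of relatives holds none of WT1. SIX4, LMX1B and HNF4G, also relatives, were counted among the further development factors, and of them only HNF4G was above background.

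Of 20 measured nephrogenic signals and receptors, 8 were above background. GFRA1, the coreceptor through which GDNF signals to RET, had 12.93 and 12.92 on the untreated arrays, whereas RET itself, at 5.34 and 5.39, was within the range of the negative controls. NOTCH2, a receptor needed for proximal tubule and podocyte fates in the mouse, had 13.27 and 13.31, its ligand JAG1 11.34 and 11.07, and the receptor FGFR2 9.64 and 9.51. GDNF was not analysed here.

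Targets of the factors were unevenly represented. Of 5 measured genes tied to PAX8 in thyroid or renal carcinoma, the cell cycle gene CCND1 (14.49 and 14.59), MYC (12.58 and 12.39) and CP, the gene of ceruloplasmin (8.54 and 8.47), were above background. The thyroid genes TG (2.78 and 1.78) and SLC5A5 (2.71 and 2.22) were within it. Of 11 measured HNF4A targets known from liver, the protease inhibitor gene SERPINA1 (12.62 and 12.31) and the apolipoprotein gene APOA4 (7.90 and 7.94) were above background, and the other 9 were not.

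Markers of tubule segments were at background, and those of podocytes were divided. None of 17 measured tubule segment markers was above it on the untreated arrays, among them the phosphate carrier SLC34A1 (5.32 and 5.38), the water channels AQP2 (4.91 and 5.10) and AQP1 (4.92 and 4.90), and the organic anion carrier SLC22A6 (4.73 and 4.47). Of 6 measured podocyte markers, SYNPO, an actin-binding protein (15.07 and 15.03), and PODXL, the gene of podocalyxin (8.50 and 8.41), were above background, whereas PLA2R1 (4.68 and 5.10), the phosphatase PTPRO (3.40 and 4.07) and CLIC5 were not, nor was the slit diaphragm gene NPHS1. Over the 7 lists together, 27 of 114 genes were above background.

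**Figure D2:**
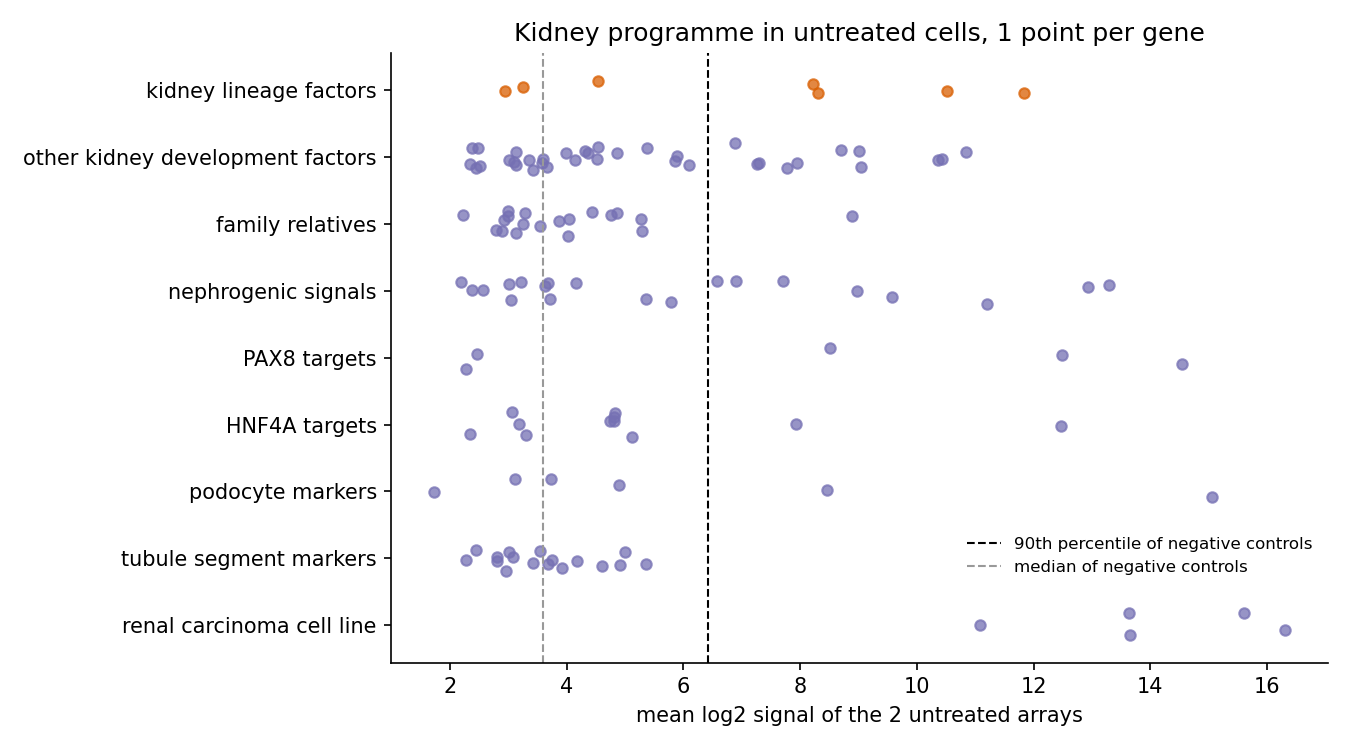
Mean log2 signal of the 2 untreated arrays (horizontal axis) for each measured gene of the kidney lists and the renal carcinoma line list, 1 point per gene, with the lineage factors in orange. Dashed lines mark the median and the 90th percentile of the negative controls, averaged over both arrays. All 17 tubule segment markers lie left of the 90th percentile, and 4 of 7 lineage factors lie right of it.

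MCP-1 treatment was then compared with no treatment, the question of the array experiment being which processes MCP-1 alters in these cells. None of the 7 lineage factors passed the test. Signals of PAX8, LHX1 and WT1 were higher on both treated than on both untreated arrays, and those of PAX2 were lower. The log2 fold changes ran from -0.38 (SIX2) to 0.31 (PAX8), and each factor had an adjusted p of 1 from limma. Differences were fitted with limma over all 21448 probe sets with the replicate number as a block, as the array methods of the paper rest on pairs, with Benjamini-Hochberg adjustment. Among all probe sets 7 passed an adjusted p of 0.05, 0.0326%. No factor had an unadjusted p under 0.05 from limma either, where 4.95% of probe sets did with the block and 4.51% without it, and by the methods' t-test 1 did, SIX2. With a fold of at least 2 as a second condition, as in those methods, no factor passed the methods' t-test, against 0.0932% of probe sets.

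Among the factors above background, the mean log2 signal of PAX8 was 11.83 ± 0.04 untreated and 12.13 ± 0.18 treated (SD, n = 2 arrays per group). Its log2 fold change was 0.31 (standard error 0.245, 95% interval from -0.24 to 0.85), with 0.41 and 0.20 in the replicate pairs. For LHX1 the change was 0.30 (standard error 0.245, 95% interval from -0.24 to 0.84), and for WT1 it was 0.17 (95% interval from -0.36 to 0.71). PAX2 went the other way, from 10.52 ± 0.06 to 10.30 ± 0.17 (SD, n = 2 arrays per group), a log2 fold change of -0.22 (95% interval from -0.76 to 0.32). Thus the treated and untreated arrays did not overlap for these 4 factors, 3 higher and 1 lower with treatment. The 4 of 7 compare with 31.6% of all probe sets, 16.3% in the higher and 15.2% in the lower direction, so such a gap is common with 2 arrays per group.

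Of the factors at background, EMX2 and OSR1 changed sign between the replicate pairs, and SIX2 did not. SIX2 had a log2 fold change of -0.38 (95% interval from -0.91 to 0.16), with -0.35 and -0.40 in the replicate pairs and overlapping groups. These near-equal differences gave the methods' t-test p of 0.0432, from a paired test with 1 degree of freedom (n = 2 pairs), without reaching its fold threshold of 2, and its adjusted p was 0.99979. No exact permutation test of 2 against 2 arrays can give a two-sided p below 0.333. EMX2 had a log2 fold change of -0.34 (95% interval from -1.11 to 0.43), made of 0.46 and -1.15 in the replicate pairs, and without MCP-1-treated replicate 2 it was 0.32. OSR1, at -0.02 (95% interval from -0.66 to 0.62), also changed sign between the pairs, with -0.54 and 0.50. Without MCP-1-treated replicate 1 it was 0.33, and without untreated replicate 1 it was 0.15. Differences between signals at background do not measure a change in transcript.

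**Figure D3:**
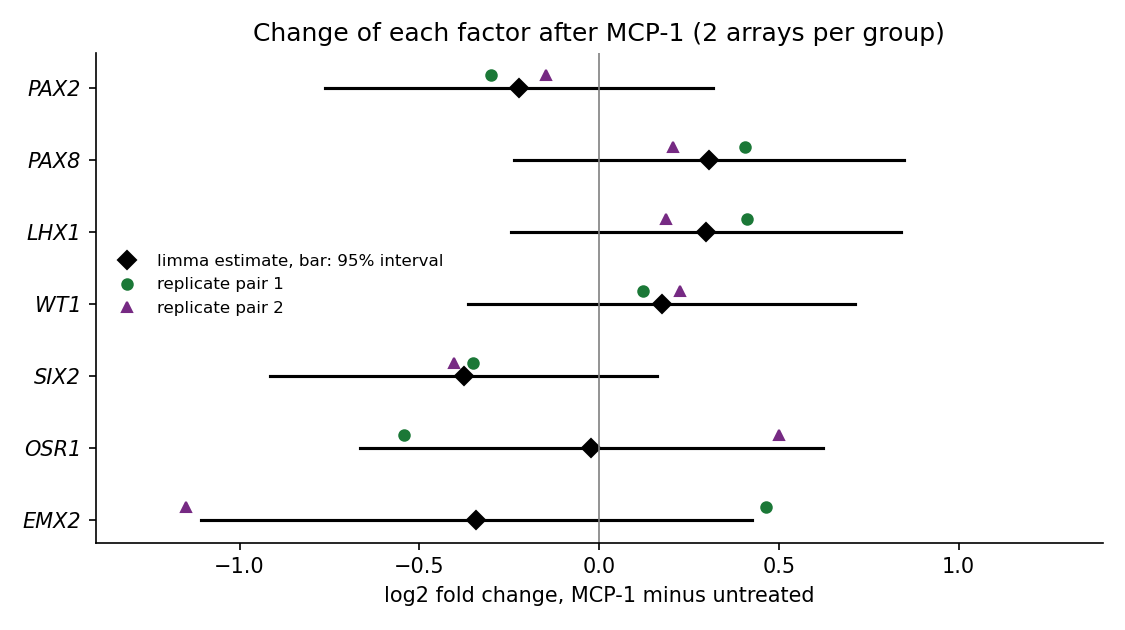
Log2 fold change, MCP-1-treated minus untreated (horizontal axis), of each factor, with diamonds for the limma estimate, bars for its 95% interval, and circles and triangles for the difference in replicate pairs 1 and 2. Every bar crosses 0, and the pairs fall on opposite sides of 0 for OSR1 and EMX2.

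For the 4 factors above background limma's 95% interval lay within a 2-fold change in either direction. The same held for SIX2 and OSR1, at background, so it does not set the 4 apart. Changes smaller than the intervals would not be seen with 2 arrays per group. The intervals rest on a spread that limma borrows from all probe sets. With that spread fitted to signal level and estimated robustly, both at once, the standard error was 0.19 for PAX8, 0.21 for PAX2, 0.26 for WT1 and 0.26 for LHX1, and for SIX2, at background, it was 0.34. The treated mean was higher for 3 factors and lower for 4, with a median log2 fold change of -0.02, beside 52.3% of all probe sets with a higher and 47.7% with a lower treated mean, and a median of 0.01. The median of the 4 factors above background was 0.24.

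**Figure D4:**
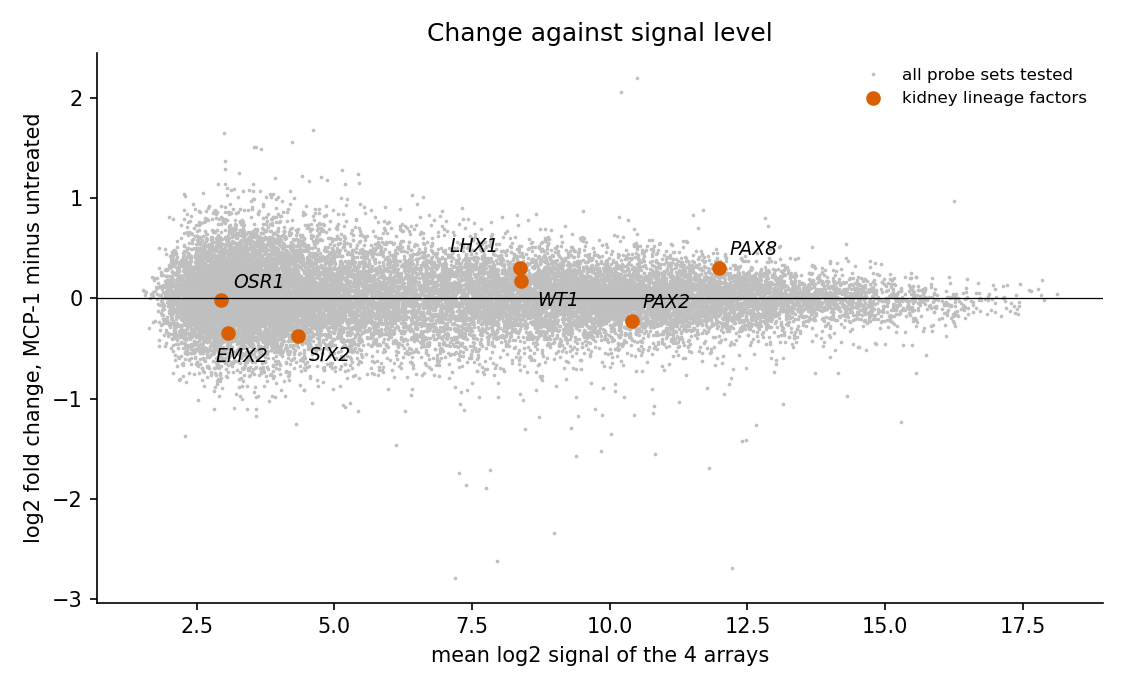
Log2 fold change, MCP-1-treated minus untreated (vertical axis), against the mean log2 signal of the 4 arrays (horizontal axis), in grey for all 21448 probe sets tested and in orange for the 7 lineage factors. The factors lie between -0.38 and 0.31, inside the grey cloud.

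The rest of the kidney programme gave no call either. Of the 114 genes in the 7 lists, 59 had higher and 55 lower treated means, with a median log2 fold change of 0.01. None passed limma's adjusted threshold. An unadjusted p under 0.05 from limma was found for 2 of the 114, where 4.95% of all probe sets had one. The one among the 36 further development factors was HOXC11, one of the HOX11 genes that pattern the kidney in the mouse. It had log2 signals of 2.43 and 2.46 untreated and 3.15 and 4.03 treated (log2 fold change 1.14, adjusted p = 0.608 from limma). The other was CLIC5, a chloride channel protein of podocyte foot processes, with 3.25 and 2.96 untreated and 3.97 and 3.40 treated (log2 fold change 0.58, adjusted p = 0.981 from limma). Signals of both genes were within the range of the negative controls on all 4 arrays.

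The counts of higher and lower treated means in each list cover all its measured genes, of which many lie at background and carry no measured change. In the further development factors, 11 of 36 above background, the treated mean was higher for 21 and lower for 15, with TFAP2A, an AP-2 factor, at -0.37 (log2 fold change). Of the 19 family relatives, 1 above background, 7 were higher and 12 lower, with PAX6 at -0.41. Its treated signals, 8.41 and 8.55, lay below both untreated ones, as did those of TFAP2A, JAG1 and 15.2% of all probe sets. Of the 20 nephrogenic signals, 8 above background, 12 were higher and 8 lower, with JAG1 at -0.46 (10.66 and 10.84 treated) and GFRA1 at 0.03 (12.95 and 12.95 treated).

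Of the 5 PAX8-tied genes 3 were higher and 2 lower in treated cells, with MYC at -0.45 (11.93 and 12.14 treated), CCND1 at 0.19 and CP at 0.05 (log2 fold changes). Of the 11 HNF4A targets 4 were higher and 7 lower, with SERPINA1 at -0.06. Of the 6 podocyte markers 5 were higher and 1, SYNPO, lower, at -0.24. Of the 17 tubule segment markers, all at background, 7 were higher and 10 lower. None of these differences passed limma's threshold (adjusted p of 1 for every gene named in this paragraph and the one before it).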

How the data were processed

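Gene expression in 786-O cells was profiled by array (Clariom S), with 2 dishes left untreated and 2 given MCP-1. The authors scanned the arrays, processed them with Affymetrix Expression Console 1.4 (SST-RMA, a signal transformation followed by multiarray averaging) and deposited 1 table of log2 signals per probe set. These values were taken as they are, without a return to the scans, and detection was judged from the negative controls. The build behind the array is not given in the sources used here. The number of arrays limits the precision. The labels call the treated arrays biological replicates and the methods describe duplicate dishes. P-values measure only the spread between these arrays.

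From the 24351 probe sets the 2903 controls were set aside, and the other 21448 were tested. The gene table gives 1 symbol for 17709 of these, several for none and no symbol for 3739. Each of the 7 factors had 1 probe set. Where a gene had several, the one with the highest mean was used. Groups were compared with limma 3.58.1 in R 4.3.3 (group and replicate number, 1 residual and 9.60 prior degrees of freedom) and tested on simulated data. Summaries were made in Python 3.11.15 and plotted with matplotlib 3.10.9.

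The members and the lists were chosen with earlier results of these data known, and no test was made over a list. All factors are named, and of each further list up to 4 genes with the smallest p and the 4 brightest. RET, HNF4G, NPHS1 and the markers named as absent were chosen after their values were seen. As alternatives the fit was run without the block, with dim probe sets filtered out, with centred or quantile-normalized arrays and with a variance prior that was both trended and robust. The methods' t-test, each array left out, each replicate pair alone and other background thresholds were also run. The GC-binned background and the median over factors above background were alternatives added once values were known.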

Additional observations from a re-analysis of the deposited data

How the results depend on the processing

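No factor passed an adjusted p of 0.05 in any of 12 fits, the smallest being 0.4996 (EMX2 without MCP-1-treated replicate 1). Replicate numbers gave no sign of pairing, since deviations from the group means correlated at -0.0466 between arrays of the same number. With no replicate block limma called 0 probe sets in all (968 at an unadjusted p under 0.05) and no factor. Dropping the block cannot move a fold change in this balanced design. The count over all probe sets was also 0 on centred and 0 on quantile-normalized arrays, 49 when dim probe sets (under the 90th percentile of negative controls) were dropped, 69 with a variance prior that was both trended and robust, and 4 by the methods' t-test, and from 0 to 0 with 1 array left out and no block. The cause was not tested. PAX8, LHX1, WT1 and PAX2 kept their direction under every alternative run, which non-overlapping groups fix beforehand for each array left out and each pair. SIX2 kept its direction where it was fitted, the filter on negative controls having removed it. The median of the 7 log2 fold changes falls on OSR1 in the main fit. That median was 0.12 in replicate pair 1, where it falls on WT1, and 0.18 in pair 2, where it falls on LHX1. It ran from -0.15 to 0.20 with 1 array left out, and was 0.24 over the 4 factors above background. OSR1 was at 0.50 in pair 2 and from -0.37 to 0.33 with 1 array left out, EMX2 at 0.46 in pair 1 and from -0.999 to 0.32. The number of factors above background was 4 under every threshold tried except the median of the negative controls, which 5 passed. Taking the mean over probe sets of a gene could change nothing, since each factor has 1.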
